A study of Saccharomyces cerevisiae with 4 samples.

Results

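The pheromone response of budding yeast is carried by a G protein and a mitogen-activated protein (MAP) kinase cascade, and 10 of its genes are described here. They are GPA1, STE4 and STE18, which encode the alpha, beta and gamma subunits of the G protein, the scaffold gene STE5, and the kinase genes STE11, STE7 and FUS3. The others are the transcription factor gene STE12, SST2, which encodes the protein that switches the G protein off, and FAR1, whose product arrests the cell cycle. They were picked by gene symbol as parts of 1 pathway, with earlier results of these data known, and no value enters the rule. Each had 1 probe set, so they make up 10 of the 5498 probe sets that the array annotation assigns to exactly 1 S. cerevisiae gene.

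In a cell of mating type a, alpha-factor from a partner binds the receptor Ste2, and Gpa1 then releases the Ste4-Ste18 dimer. The dimer brings the scaffold Ste5 to the membrane, where the kinases Ste11, Ste7 and Fus3 act in turn, and Fus3 frees Ste12 from its repressors to switch on mating genes. Several genes of the cascade, among them FAR1, SST2, GPA1 and FUS3, are themselves known to be induced by pheromone, and Ste12 also keeps a basal level of such genes when no pheromone is present.

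Total RNA from 4 cultures was measured, 1 Affymetrix Yeast Genome 2.0 array per culture. The labels give 2 biological replicates of strain BY4741 with the plasmid p425-GPD-RNase H1, and 2 of the same strain with the empty plasmid p425-GPD. All 4 cultures were MATa with the alleles his3∆1, leu2∆0, met15∆0 and ura3∆0, and shared the LEU2 marker of the plasmid, medium lacking leucine, a temperature of 30 °C and mid-log growth. The insert stood behind the constitutive GPD promoter. No pheromone treatment is named in the labels, so the values are those of cells growing without a stated mating stimulus. RNase H1 digests RNA that is paired with DNA, and the question here is how transcripts of the mating cascade differ when its gene is on the plasmid.

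The yeast RNase H1 gene RNH1 had signals of 303 and 307 in the arrays labelled RNase H1, against 320 and 292 in the empty vector arrays. No source used here names the insert's species, so a foreign insert would leave this probe set without an answer, and RNase H1 below means arrays as labelled. The signal sums of the 4 arrays lay between 6889760 and 7097920, and the number of arrays limits the precision. Actin probes at the 3′ end, divided by those at the 5′ end to gauge RNA quality, gave 1.68 and 1.48 in the RNase H1 arrays and 1.34 in both empty vector arrays, and the part of RNA quality in the results below was not tested. The RNase H1 arrays differed from each other by a median of 1.26-fold over all tested probe sets, and the empty vector arrays by 1.08-fold. A mating type a identity was checked with 6 a-specific genes (STE2, STE6, MFA1, MFA2, BAR1 and AGA2), whose signals ran between 425 and 4964 in the RNase H1 arrays and between 2370 and 7527 in the empty vector arrays. The summed signal of these 6 was 14035 and 13245 in the RNase H1 arrays, against 26807 and 27078 in the empty vector arrays. The alpha-factor genes MF(ALPHA)1 and MF(ALPHA)2 lay between 9.40 and 25.5 in the RNase H1 arrays and between 8.39 and 23.6 in the empty vector arrays. STE3, the receptor gene of alpha cells, went the other way from the a-specific genes, with 138 and 75.6 in the RNase H1 arrays, against 33.6 and 41.5 in the empty vector arrays. SAG1, the alpha-agglutinin gene, had 499 and 263 in the RNase H1 arrays, against 374 and 405 in the empty vector arrays.

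FAR1 alone of the 10 passed the test, and it was lower with RNase H1. The log2 signals were compared with limma as RNase H1 minus empty vector, with p-values adjusted by Benjamini-Hochberg over 5470 tested probe sets and a threshold of 0.05. In that comparison 1 of 10 members was called lower, where 0.347% of all tested probe sets were. None was called higher, where 1.13% of all were. The call of FAR1 was lost when either empty vector array was left out. Fits without an RNase H1 array take their spread from the empty vector arrays alone, so their calls add no support. Those without an empty vector array take theirs from the RNase H1 arrays alone, with FAR1 at log2 fold changes of −1.93 and −1.88. With each array left out in turn, the members' median log2 fold change lay between −0.55 and −0.40. With all arrays, 5 members were lower and 1 was higher at an unadjusted p under 0.05 in limma, beside 12.7% and 11.0% of all tested probe sets. The median log2 fold change of the 10 members was −0.41, and that of all tested probe sets was −0.02. All 10 passed the filter on dim probe sets, with signals between 114 and 1636, and a signal of 2.13 was the filter's limit. The cultures are bulk samples, so fewer cells that hold a transcript and less of it per cell cannot be told apart.

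**Figure D1:**
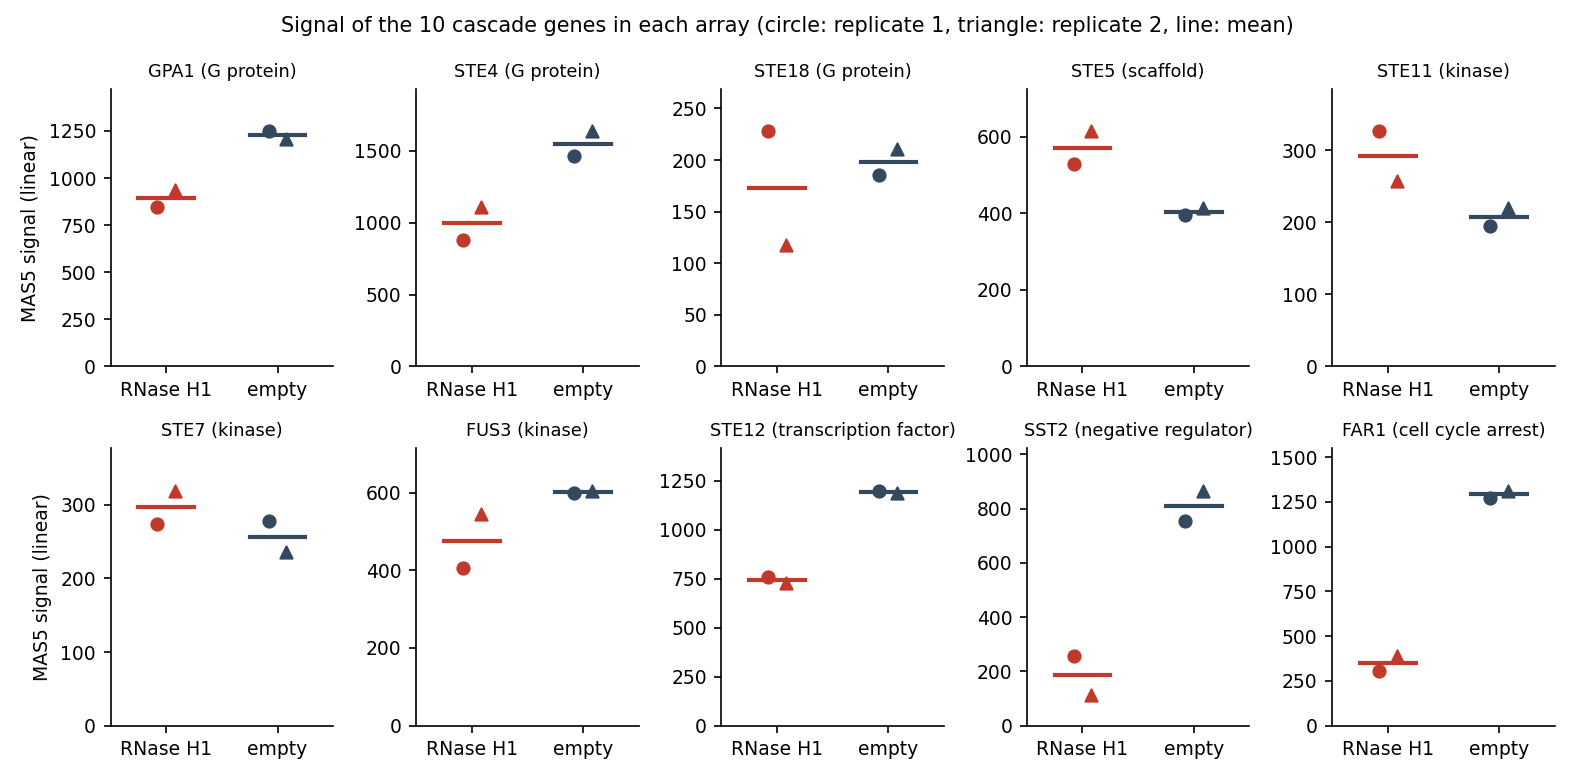
MAS5 signal (linear scale from 0) of each of the 10 cascade genes in the 4 arrays, with RNase H1 left and empty vector right. Circles are replicate 1, triangles replicate 2 and lines the mean of 2 arrays; FAR1 and SST2 have the widest separation between groups, and STE18 and STE7 overlap.

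FAR1 (YJL157C) encodes the inhibitor of the G1 cyclin-dependent kinase that holds cells in G1 on pheromone, and it also ties the G protein to the polarity machinery. Its signal was 307 and 388 in the RNase H1 arrays, against 1272 and 1313 in the empty vector arrays. Both RNase H1 arrays lay below both empty vector arrays, a pattern shared by 30.8% of all tested probe sets. The mean was 347 ± 57.5 with RNase H1 and 1293 ± 28.7 with empty vector (SD, n = 2 each), and the log2 fold change was −1.91 ± 0.19 (SE, limma adjusted p = 0.0292), which is 3.75-fold lower. Only 17 of the 5470 tested probe sets had a lower log2 fold change. The call was lost in limma without an intensity trend (adjusted p = 0.0893) and when either empty vector array was left out (adjusted p = 0.0758 and 0.0842), while the log2 fold change lay between −2.08 and −1.73 under all alternatives run.

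SST2 (YLR452C) encodes the regulator of G protein signalling that speeds GTP hydrolysis by Gpa1 and so ends the signal. Its signal was 258 and 114 in the RNase H1 arrays, against 755 and 867 in the empty vector arrays. Both RNase H1 arrays lay below both empty vector arrays, as for 30.8% of all tested probe sets. The RNase H1 arrays lay 2.26-fold apart from each other and the empty vector arrays 1.15-fold. The log2 fold change was −2.23 ± 0.42 (SE, n = 2 each), larger in size than that of FAR1, but it did not pass (limma adjusted p = 0.0857). Its 95% interval ran from −3.33 to −1.14. Without RNase H1 array 1 the log2 fold change was −2.82, and without array 2 it was −1.65. A fit that leaves out an RNase H1 array takes its spread from the empty vector arrays alone, so the calls of such a fit add no support.

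The G protein subunit genes did not pass the test. GPA1 (YHR005C) had signals of 846 and 939 in the RNase H1 arrays, against 1248 and 1209 in the empty vector arrays. STE4 (YOR212W) had 883 and 1107 in the RNase H1 arrays, against 1462 and 1636 in the empty vector arrays. For both the alpha and the beta subunit gene, each RNase H1 array lay below each empty vector array, as for 30.8% of all tested probe sets. The log2 fold change was −0.46 ± 0.14 for GPA1 (SE, n = 2 each, limma adjusted p = 0.164). For STE4 it was −0.65 ± 0.17 (limma adjusted p = 0.129). STE18 (YJR086W), the gene of the lipid-modified gamma subunit that anchors Ste4 to the membrane, had 228 and 118 in the RNase H1 arrays, against 186 and 210 in the empty vector arrays. RNase H1 array 1 was above both empty vector arrays and array 2 below both. Its log2 fold change was −0.27 ± 0.37 (limma adjusted p = 0.685) with a 95% interval from −1.24 to 0.70, so a difference of either sign was within the error. The sign turned without RNase H1 array 2, to 0.21, and without array 1 the value was −0.75.

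The genes of the scaffold and of the upper kinases lay on the other side of 0 from most of the cascade, and did not pass either. STE5 (YDR103W), whose product holds the 3 kinases together, had signals of 529 and 615 in the RNase H1 arrays, against 395 and 414 in the empty vector arrays. STE11 (YLR362W), the MAP kinase kinase kinase gene whose product also serves the filamentous growth and high osmolarity pathways, had 326 and 257 in the RNase H1 arrays, against 194 and 220 in the empty vector arrays. Both genes had each RNase H1 array above each empty vector array, as did 28.0% of all tested probe sets. The log2 fold change was 0.50 ± 0.18 for STE5 (SE, n = 2 each, limma adjusted p = 0.193). For STE11 it was 0.49 ± 0.22 (limma adjusted p = 0.261), with a 95% interval from −0.09 to 1.07. STE7 (YDL159W), the MAP kinase kinase gene, had 273 and 319 in the RNase H1 arrays, against 277 and 236 in the empty vector arrays, and the groups overlapped. Its log2 fold change was 0.21 ± 0.21 (limma adjusted p = 0.571), with a 95% interval from −0.33 to 0.75.

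At the end of the cascade, FUS3 and STE12 had lower signals in both RNase H1 arrays than in both empty vector arrays. The same held for 30.8% of all tested probe sets, and neither gene passed the test. FUS3 (YBL016W), the MAP kinase gene of the mating branch, had 406 and 544 in the RNase H1 arrays, against 598 and 605 in the empty vector arrays. Its log2 fold change was −0.36 ± 0.21 (SE, n = 2 each, limma adjusted p = 0.352), with a 95% interval from −0.90 to 0.19. STE12 (YHR084W), the transcription factor gene, had 759 and 729 in the RNase H1 arrays, against 1200 and 1189 in the empty vector arrays. Its replicates were the closest of the 10 members in both groups, 1.04-fold apart in the RNase H1 arrays and 1.01-fold in the empty vector arrays. The log2 fold change of STE12 was −0.68 ± 0.14, which is 1.61-fold lower, and it did not pass (limma adjusted p = 0.0900). Its 95% interval ran from −1.05 to −0.32, and over the alternatives run the log2 fold change lay between −0.74 and −0.64.

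**Figure D2:**
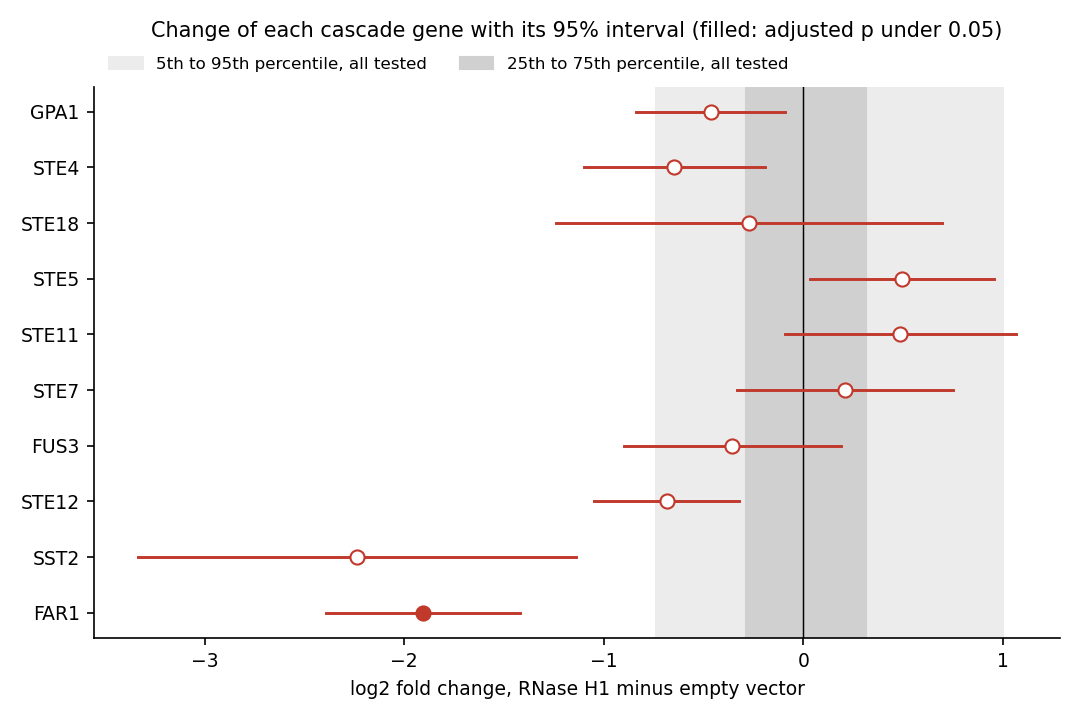
Log2 fold change of each cascade gene, RNase H1 minus empty vector (points), with its 95% limma interval (lines, 2 arrays a group) in the order of the pathway. Shaded bands hold the central part of all 5470 tested probe sets, from −0.74 to 1.00 (5th to 95th percentile) and from −0.29 to 0.32 (25th to 75th); the intervals of FAR1 and SST2 lie below the wider band.

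Among themselves the 10 genes ran from −2.23 for SST2 to 0.50 for STE5 on the log2 fold change scale. The 95% intervals of 6 members did not include 0: those of FAR1, SST2, STE12, STE4 and GPA1 below it and that of STE5 above it. These intervals are not adjusted for the number of probe sets. The interval of FAR1, from −2.39 to −1.42, did not meet that of any of the other cascade genes except SST2. In 6 members both RNase H1 arrays lay below both empty vector arrays, where 30.8% of all tested probe sets did. In 2 they lay above both, where 28.0% of all did.

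Each RNase H1 array was also set against the empty vector mean, which both differences share. The median difference of the members was −0.55 in array 1 and −0.44 in array 2, beside 0.04 and −0.08 over all tested probe sets. FUS3 lay at −0.57 in array 1 and −0.15 in array 2, and STE11 at 0.66 and 0.31. The signal of 2 members, STE18 and SST2, was over 1.5-fold apart between the RNase H1 arrays, as was that of 28.3% of all tested probe sets. Between the empty vector arrays no member was that far apart.

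**Figure D3:**
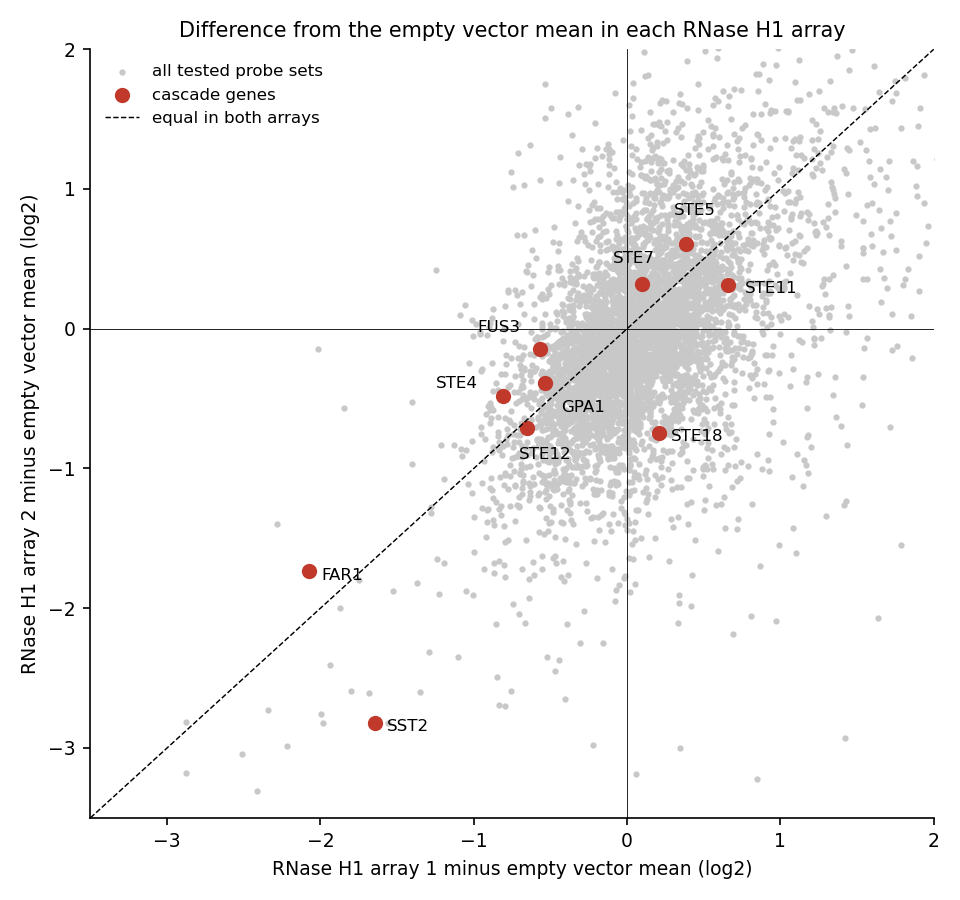
Log2 difference from the empty vector mean in RNase H1 array 1 (horizontal) and array 2 (vertical) for the 10 cascade genes (red) and all tested probe sets (grey). The axes end at −3.5 and 2, which leaves 110 probe sets outside; STE12 lies near the line of equal values, and STE18 is at 0.21 in array 1 and −0.75 in array 2.

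Other genes of the pathway and its neighbours were taken from lists of 71 genes, chosen by function with earlier results of these data known, and all 71 were tested. Of these, 8 were called lower in the limma comparison and 0 higher (11.3% and 0%), beside 0.347% and 1.13% of all tested probe sets. At an unadjusted p under 0.05, 21 were lower and 8 higher (29.6% and 11.3%), beside 12.7% and 11.0% of all, so the share that was higher was near that of all probe sets. Fits without an RNase H1 array take their spread from the empty vector arrays alone, so their calls add no support here either. When either empty vector array was left out, the calls of CLN2 and PRM1, described below, were lost. STE2, the alpha-factor receptor gene above the G protein, had signals of 3903 and 3853 in the RNase H1 arrays, against 7352 and 7527 in the empty vector arrays. Its log2 fold change was −0.94 ± 0.06 (limma adjusted p = 0.0161). STE3, whose signals are given with the mating type check, is outside the naming rule and was chosen after its values were seen. Its log2 fold change was 1.45 ± 0.40 and did not pass (limma adjusted p = 0.133).

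None of the 5 polarity and input genes that link the G protein to Ste11 passed in limma, and 0 were lower or higher at an unadjusted p under 0.05. Over all tested probe sets 0.347% were called lower and 1.13% higher, so 0 calls in a list this short is near the share of all. At an unadjusted p under 0.05 the shares of all were 12.7% lower and 11.0% higher. Their log2 fold changes lay between −0.27 for CDC42, the polarity GTPase gene, and 0.29 for STE20, the gene of the kinase that activates Ste11. Of 6 genes that process and attach lipids to pathway proteins, 0 passed. At an unadjusted p under 0.05, 2 of these were lower and 0 higher. STE24, a protease gene of a-factor maturation, had a log2 fold change of −0.79 ± 0.14 (limma adjusted p = 0.0764). STE14, the methyltransferase gene for farnesylated proteins such as Ste18, had one of −0.48 ± 0.18 (limma adjusted p = 0.200).

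Around Fus3 and Ste12, 1 of 7 genes was called lower and 0 higher, beside 0.347% and 1.13% of all tested probe sets. At an unadjusted p under 0.05 in limma, 1 was lower and 2 higher, beside 12.7% and 11.0% of all. The 2 higher were the phosphatase genes PTP2 (log2 fold change 0.78 ± 0.16) and PTP3 (0.63 ± 0.17). Both are outside the naming rule and did not pass (limma adjusted p = 0.0946 and 0.128). TEC1, whose product binds with Ste12 at filamentous growth genes, had signals of 474 and 343 in the RNase H1 arrays, against 1820 and 1816 in the empty vector arrays. The groups were far apart, with a log2 fold change of −2.17 ± 0.21 (limma adjusted p = 0.0279). KSS1, the MAP kinase gene most like FUS3 in function, and the Ste12 repressor genes DIG1 and DIG2 fall outside the naming rule and were chosen after their values were seen. KSS1 had 95.1 and 165 in the RNase H1 arrays, against 170 and 161 in the empty vector arrays, and the groups overlapped (log2 fold change −0.40 ± 0.33, limma adjusted p = 0.497). DIG1 had a log2 fold change of −0.22 ± 0.25 (limma adjusted p = 0.628) and DIG2 one of −0.66 ± 0.28 (limma adjusted p = 0.242).

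Below the cascade, 5 of 24 pheromone-induced genes were called lower and 0 higher, and 13 were lower and 2 higher at an unadjusted p under 0.05 in limma. Over all tested probe sets 0.347% were called lower and 1.13% higher, and 12.7% and 11.0% at the unadjusted p. The list's median log2 fold change was −0.64, and 21 of 24 lay below 0. The 2 higher at the unadjusted p were PRM4 (1.43 ± 0.35) and PRM5 (0.56 ± 0.15). Both are outside the naming rule and did not pass (limma adjusted p = 0.114 and 0.124). BAR1, MFA1 and MFA2 of this list also served in the mating type check, so their values enter both. Those called were FUS1, a cell fusion gene (−2.78 ± 0.24), BAR1, the gene of the protease that degrades alpha-factor (−2.54 ± 0.18), AGA1, the agglutinin anchor gene (−2.60 ± 0.29), ASG7, an a-specific regulator of the signal (−2.86 ± 0.34), and PRM1, a membrane fusion gene (−3.03 ± 0.39). A further list held the G1 cyclin genes CLN1, CLN2 and CLN3, the kinase gene CDC28 and the kinase inhibitor gene SIC1. Of these 5, 1 was called lower and 0 higher, and 2 were lower and 0 higher at the unadjusted p. CLN2, the cyclin gene whose kinase Far1 inhibits, was the 1 called. CLN1, outside the naming rule, had a log2 fold change of −1.14 ± 0.23 and did not pass (limma adjusted p = 0.0894). CLN2 had signals of 429 and 416 in the RNase H1 arrays, against 1437 and 1448 in the empty vector arrays (log2 fold change −1.77 ± 0.15, limma adjusted p = 0.0240). CLN2 and PRM1 were not past the threshold without either empty vector array (adjusted p between 0.0758 and 0.272). The log2 fold change of PRM1, whose signals lay between 14.1 and 166, was −2.19 with a pseudocount of 16 and −1.28 with 64, and did not pass in either. Without an intensity trend none of the 8 genes called here passed (adjusted p between 0.0637 and 0.113).

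**Figure D4:**
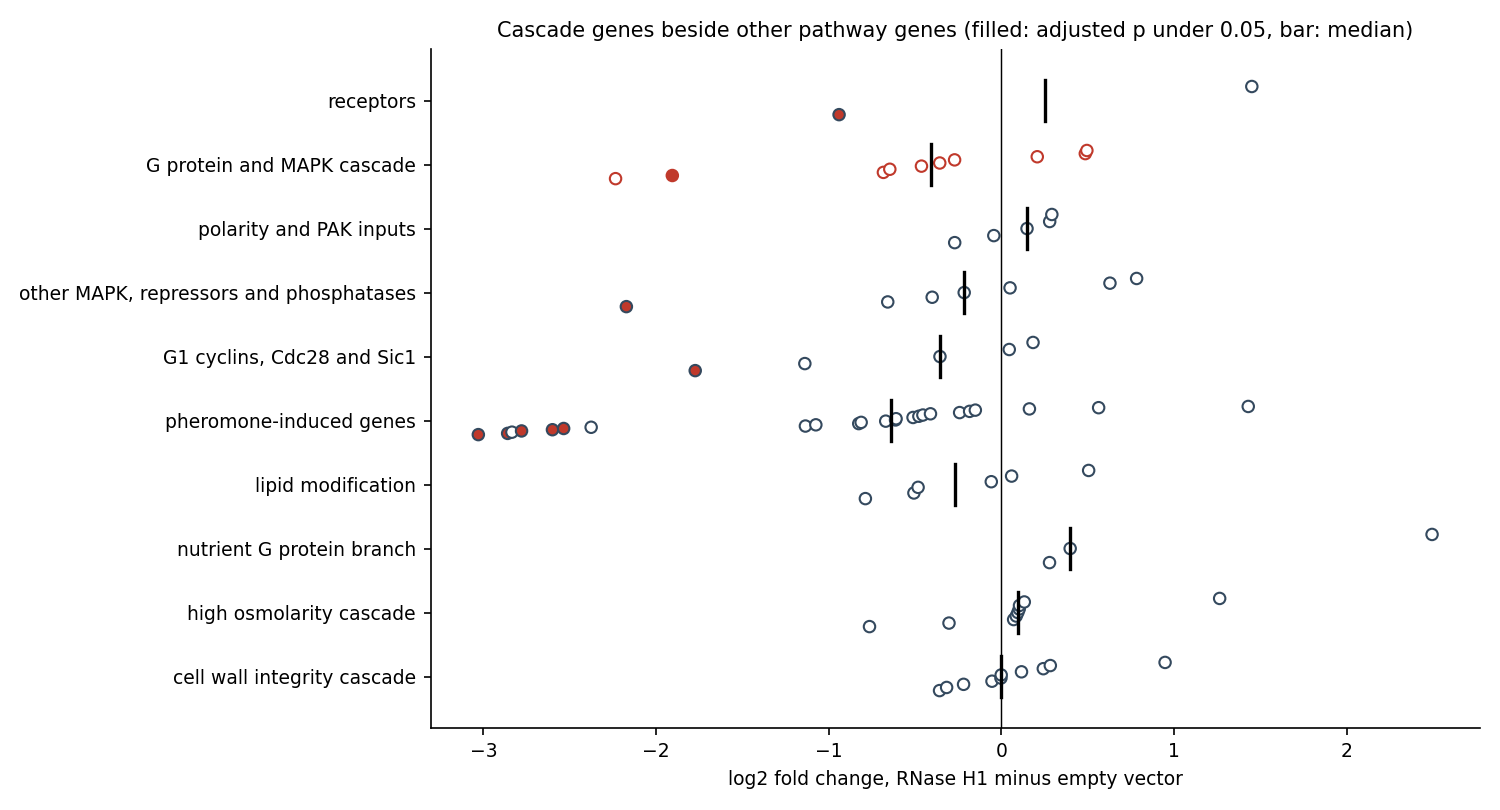
Log2 fold change, RNase H1 minus empty vector, of the 10 cascade genes and of 71 other genes in 9 functional lists (1 point a gene, filled where the limma adjusted p was under 0.05, vertical bar for the list's median). The cascade's median is −0.41, that of the pheromone-induced genes is −0.64, and those of the high osmolarity and cell wall cascades are 0.10 and −0.002.

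The other MAP kinase cascades of yeast had no call. Over all tested probe sets 0.347% were called lower and 1.13% higher, so 0 calls in lists this short is near the share of all. At an unadjusted p under 0.05 the shares of all were 12.7% lower and 11.0% higher. In the high osmolarity cascade, 0 of 9 genes passed in limma, 1 was lower and 1 higher at an unadjusted p under 0.05, and the median was 0.10. Its genes with the smallest p were SSK22, a MAP kinase kinase kinase gene (1.26 ± 0.20, adjusted p = 0.0663), and SHO1, the gene of an osmosensor that works through Ste11 (−0.76 ± 0.17, adjusted p = 0.0989). In the cell wall integrity cascade, 0 of 10 passed, again with 1 lower and 1 higher at an unadjusted p under 0.05, and the median was −0.002. Its genes with the smallest p were RLM1, the transcription factor gene (0.95 ± 0.20, adjusted p = 0.0909), and RHO1, the GTPase gene (−0.36 ± 0.08, adjusted p = 0.0997). In the nutrient-sensing G protein branch, 0 of 3 genes passed in limma, with 0 lower and 1 higher at an unadjusted p under 0.05. RGS2, which encodes the regulator of G protein signalling for Gpa2 as Sst2 does for Gpa1, had 199 and 998 in the RNase H1 arrays, against 74.7 and 83.8 in the empty vector arrays. Its RNase H1 arrays were far from each other, and its log2 fold change of 2.50 ± 0.78 did not pass (limma adjusted p = 0.166). GPA2, the alpha subunit gene of that branch, had one of 0.40 ± 0.17 (limma adjusted p = 0.245). Whether the pheromone cascade differs from these cascades was not tested.

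The probe sets with the pattern most like FAR1 were sought among all tested ones, by the Euclidean distance between log2 differences from the empty vector mean over the 4 arrays. The nearest was CLN2 at a distance of 0.33 (log2 units), followed by FCY21, a gene of the purine-cytosine permease family, at 0.40 and YMR242W-A at 0.44. YMR242W-A had signals of only 2.37 and 4.39 in the RNase H1 arrays, against 12.4 and 10.7 in the empty vector arrays, close to the limit of the dim filter. Neither FCY21 (adjusted p = 0.0552) nor YMR242W-A (adjusted p = 0.188) passed in limma.

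Under quantile, median and cyclic loess scaling no member changed sign, FAR1 stayed past the threshold (limma adjusted p between 0.0315 and 0.0440), and none of the other members passed.

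**Figure D5:**
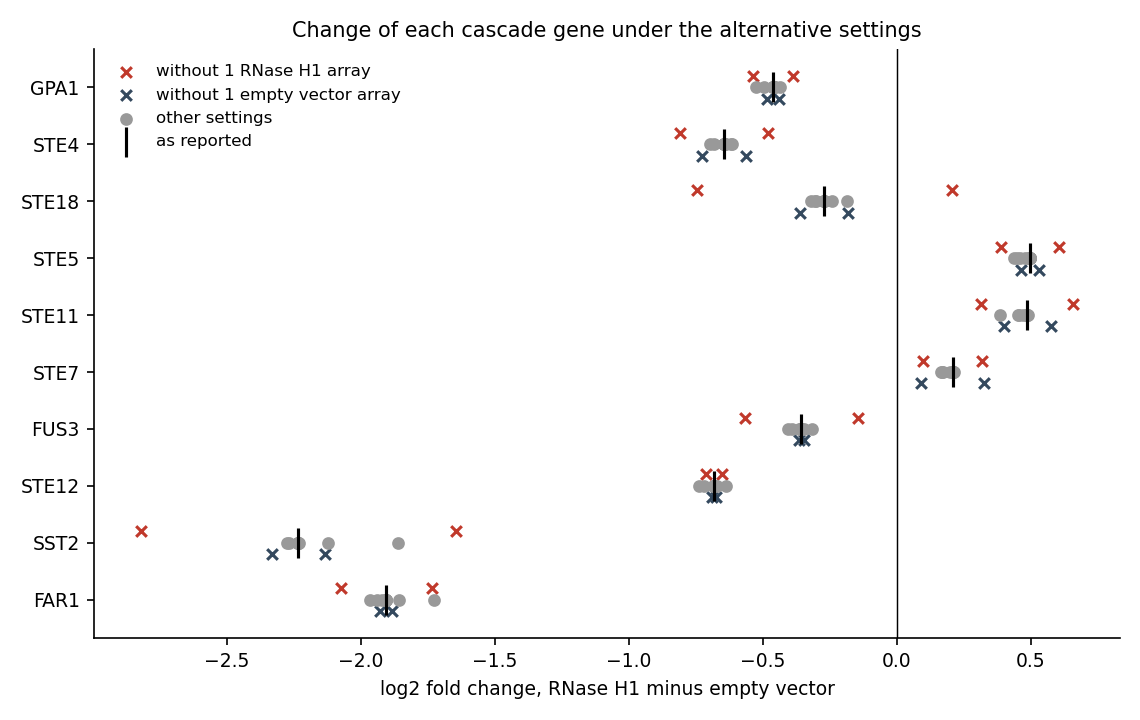
Log2 fold change of each cascade gene, RNase H1 minus empty vector, as reported (black bar), under 11 alternative settings of scaling, filter, pseudocount and variance model or block (grey), and with 1 RNase H1 array (red) or 1 empty vector array (dark) left out. STE18 is the 1 gene that crosses 0, at 0.21 without RNase H1 array 2, and SST2 spans −2.82 to −1.65.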

How the data were processed

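Each array has 1 linear signal intensity a probe set, deposited by the authors after MAS5 in Affymetrix Expression Console, per the submitters' processing notes. No source used here states the scaling target; the 2% trimmed mean was 500.3 in every array. The table held 10928 probe sets and 0 other columns of samples. Symbols followed the R64 annotation through gene IDs. Of probe sets with 1 S. cerevisiae gene, 5470 had a mean log2 signal above the 75th percentile of the 1746 S. pombe probe sets on the same array and were tested; 28 did not.

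Log2 signals, with no pseudocount and no further scaling, were fitted with limma 3.58.1 in R 4.3.3 (lmFit, eBayes with an intensity trend), two-sided, and fold changes are RNase H1 minus empty vector. The fit was also run on simulated data with the same spread in both groups. The median gap was 0.333 log2 between the RNase H1 arrays and 0.107 between the empty vector arrays, which the simulation did not cover. With 2 arrays a group, the smallest exact permutation p is 0.333. Alternatives were quantile, median and cyclic loess scaling, other dim filters, pseudocounts of 16 and 64, robust eBayes, no trend, leaving out each array, a replicate block and an adjusted p under 0.10. The members and lists were chosen with earlier results of these data known. All members are named; of other lists, those called, or else the 2 with the smallest p; for a called member, the 3 probe sets most like it. A planned count of promoter motifs was not run, as no sequences were used here.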

Additional observations from a re-analysis of the deposited data

How the results depend on the processing

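In limma, 19 probe sets were called lower and 62 higher over all genes, 1 and 0 among the 10 members, and 8 and 0 among the 71 other pathway genes. Without an intensity trend these were 0 and 7, 0 and 0, and 0 and 0 (at an unadjusted p under 0.05, 495 and 626, 5 and 1, and 21 and 8). The cause was not tested for this or the changes that follow. Median scaling gave 41 higher over all genes, and a pseudocount of 64 or robust eBayes 12 lower. At an adjusted p under 0.10 there were 173 lower and 192 higher over all genes, 3 lower members (FAR1, SST2 and STE12), and 14 lower and 3 higher other genes.

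With 1 array left out, the lone array of its group is assumed to vary like the other group. Over these 4 fits, calls ran from 10 to 1604 lower and 54 to 1184 higher over all genes, 0 to 6 lower and 0 to 1 higher members, and 6 to 29 lower and 0 to 13 higher other genes. The low ends came with an empty vector array left out and the high ends without RNase H1 array 1 (for members, without either RNase H1 array). The members' median, −0.41, ran from −0.55 to −0.40. STE18 turned to 0.21 without RNase H1 array 2 and was −0.75 without array 1.

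The replicate numbers are not said to pair the arrays. Same-numbered arrays had deviations correlated at −0.303 across genes, and the replicate block gave 16 lower and 66 higher calls over all genes, 1 and 0 members. PRM1 was then not past the threshold (adjusted p = 0.0682). A crossed replicate block, added after seeing the data, gave 454 and 483 over all genes, 4 and 0 members, and 18 and 6 other genes. PRM1 was also lost with pseudocounts of 16 (log2 fold change −2.19, adjusted p = 0.0520) and 64 (−1.28, 0.0683), and with robust eBayes (0.0524). The lowest member signal was 114, against a dim limit of 2.13.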

Other observations

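Protein-coding genes next to each member in the R64 annotation were looked at for a change beside the member. Of 20 such neighbours, 17 had a tested probe set and 0 passed in limma (smallest adjusted p = 0.201), with 1 lower and 0 higher at an unadjusted p under 0.05. Of all tested probe sets, 0.347% were called lower and 1.13% higher, so 0 calls among 17 neighbours is near the share of all. At the unadjusted p, 12.7% of all were lower and 11.0% higher. Their log2 fold changes lay between −0.52 for ACH1, an acetyl-CoA hydrolase gene beside FUS3, and 0.72 for IPI1, a ribosome assembly gene beside STE12. The neighbours of FAR1, CIS3 and SSY5, had log2 fold changes of −0.10 ± 0.08 and 0.06 ± 0.20, beside −1.91 ± 0.19 for FAR1 itself. Those of SST2, LEU3 and RIF2, had 0.41 ± 0.19 and 0.18 ± 0.36, beside −2.23 ± 0.42 for SST2.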
